A study of Mus musculus with 6 samples.

Results

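Malat1, Neat1, Gm26917, Gm42418, AY036118 and Lars2 are 6 of the 31053 genes counted in dissociated mouse kidney and mammary tumor. They were picked by symbol because they had been seen among the leading genes of clusters of shallow cells, that is, cells with few unique molecular identifiers (UMIs, random tags that count each captured RNA molecule once). Their share of a cell's UMIs against the cell's depth is therefore what chose them. It is given here as a description, with no test. All 6 symbols were found in the gene lists of both tissues.

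The study set a microfluidic platform, which elutes cells at intervals of 15 and 60 min, against a conventional digestion of 60 min, the control. Kidneys came from male C57BL/6 mice of 12 weeks, and tumors from female MMTV-PyMT mice of 10 weeks, in which a viral promoter active in mammary epithelium drives the polyoma middle T oncogene. All tissue was minced and digested with 0.25% type I collagenase, red cells were lysed, and cells that excluded a dead-cell dye were sorted and loaded for droplet sequencing of polyadenylated RNA. Each tissue has 1 library per condition, so no difference between conditions has a replicate check, and the intervals given are exact binomial (Clopper-Pearson) 95% intervals that cover counting error only. Values are given in the order control, 15 min, 60 min.

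Cells with at least 200 genes numbered 7888, 11521 and 13479 in kidney and 7913, 8025 and 7974 in the tumor, with medians between 5654 and 10525 UMIs. Shallow cells were defined as those under 2000 UMIs and numbered 863, 332 and 1481 in kidney and 1024, 432 and 591 in the tumor. Deep cells, of 4000 to under 16000 UMIs, numbered between 3850 and 7704 per library. Some barcodes occurred in more than 1 library of a tissue. In kidney, 309 barcodes were shared by 637 cells, and these made up 1.74, 26.5 and 9.93% of the shallow cells of the 3 libraries. The shallower kidney cell of a barcode held a median of 1.61% of the UMIs of its deeper partner. In the tumor, 57 barcodes were shared by 113 cells, and at most 6 shallow cells of a library were among them. Kidney ratios of the members are given with and without shared barcodes, as are those of Malat1 in the proximal tubule.

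Malat1 is a long noncoding RNA that stays in the nucleus at nuclear speckles, and Neat1 is the noncoding RNA on which paraspeckles assemble. Gm42418 and AY036118 are gene models laid over a ribosomal RNA sequence, and Gm26917 is a model just beside them. Most RNA of a cell is ribosomal and is not polyadenylated, so it reaches a library of this kind through priming at internal stretches rich in A or through incomplete selection. Lars2 encodes the mitochondrial leucyl-tRNA synthetase, the enzyme that charges the mitochondrial leucine tRNA. Gm26917, Gm42418, AY036118 and Lars2 are counted together here as the rRNA-like group. Lars2 is protein coding, so for it the label names the group and not a kind of RNA. Gm42418 weighs most in the group's sums, with 34007 of its 37767 UMIs in shallow cells of the kidney control.

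In the GENCODE annotation of the GRCm38 build, Malat1 (chr19:5795690-5802672, minus strand) is a lincRNA of 6983 bases, and Neat1 (chr19:5824708-5845478, minus strand) is a lincRNA of 20771 bases, with 22035 bases between them. Gm26917 (chr17:39843013-39846341, plus strand) is a lincRNA of 3329 bases. It ends 616 bases before Gm42418 (chr17:39846958-39848788, plus strand), a lincRNA of 1831 bases that RefSeq lists under the name Rn18s-rs5. AY036118 (chr17:39847113-39848035, minus strand, 923 bases) lies wholly inside Gm42418 on the opposite strand. Lars2 (chr9:123366927-123462666, plus strand) is protein coding, and its longest transcript joins 21 exons into 3894 bases.

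The 2 models that overlap are shown where they face each other, because a UMI from these bases can be told apart only by strand. The sequences are from the GENCODE transcripts, and the capitals in Gm42418 mark the stretch whose reverse complement begins AY036118 (both read 5′ to 3′, chr17:39847988-39848035 for AY036118 and chr17:39847988-39848047 for Gm42418).
AY036118: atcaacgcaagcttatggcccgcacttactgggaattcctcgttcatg
Gm42418: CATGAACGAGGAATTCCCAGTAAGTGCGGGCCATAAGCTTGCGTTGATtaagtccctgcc
All 923 bases of AY036118 are the reverse complement of positions 156 to 1078 of Gm42418, which is 50.4% of that model. Whether the counting used strand is not given in the sources used here, so the division of UMIs between this pair is uncertain.

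The stretch of each noncoding member with the most A is shown because oligo-dT primers can anneal to such stretches inside an RNA. Capitals mark the 20 bases with the most A.
Malat1 (chr19:5795965-5796014): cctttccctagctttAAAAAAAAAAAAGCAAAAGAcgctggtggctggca
Neat1 (chr19:5834083-5834132): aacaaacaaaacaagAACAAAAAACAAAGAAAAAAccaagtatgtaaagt
Gm26917 (chr17:39845141-39845190): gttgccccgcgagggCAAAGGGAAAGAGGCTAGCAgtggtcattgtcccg
Gm42418 (chr17:39847152-39847201): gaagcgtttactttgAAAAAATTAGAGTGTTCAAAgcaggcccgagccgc
AY036118 (chr17:39847226-39847275): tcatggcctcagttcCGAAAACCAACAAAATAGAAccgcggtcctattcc
Malat1 and Neat1 held 17 A in their richest 20 bases, and Malat1 had an unbroken run of 12. The richest 20 bases held 13 A in AY036118 and Lars2, 11 in Gm42418 and 9 in Gm26917. The nuclear pair thus had stretches richer in A than any of the other 4 members.

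The rRNA-like models took a larger share of UMIs in shallow than in deep cells of every library, while the nuclear RNAs did not. Gm42418, AY036118 and Lars2 fell with depth in a like way. Gm26917 had the highest ratio of shallow to deep share in all libraries but the 15 min kidney library, where it had the lowest of these 4. Malat1 and Neat1 had ratios on both sides of 1. Malat1 lay above 1 in the tumor libraries and the 60 min kidney library. Neat1 lay above 1 in the 60 min kidney and 60 min tumor libraries and below it in the others. The set was named RNAs of shallow cells on this same contrast. The larger shallow shares of Gm26917, Gm42418, AY036118 and Lars2 therefore lend the name no support. Malat1 in the kidney control library and Neat1 in most libraries did not have a larger shallow share. For Malat1 in the 15 min kidney library this depended on the setting.

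**Figure D1:**
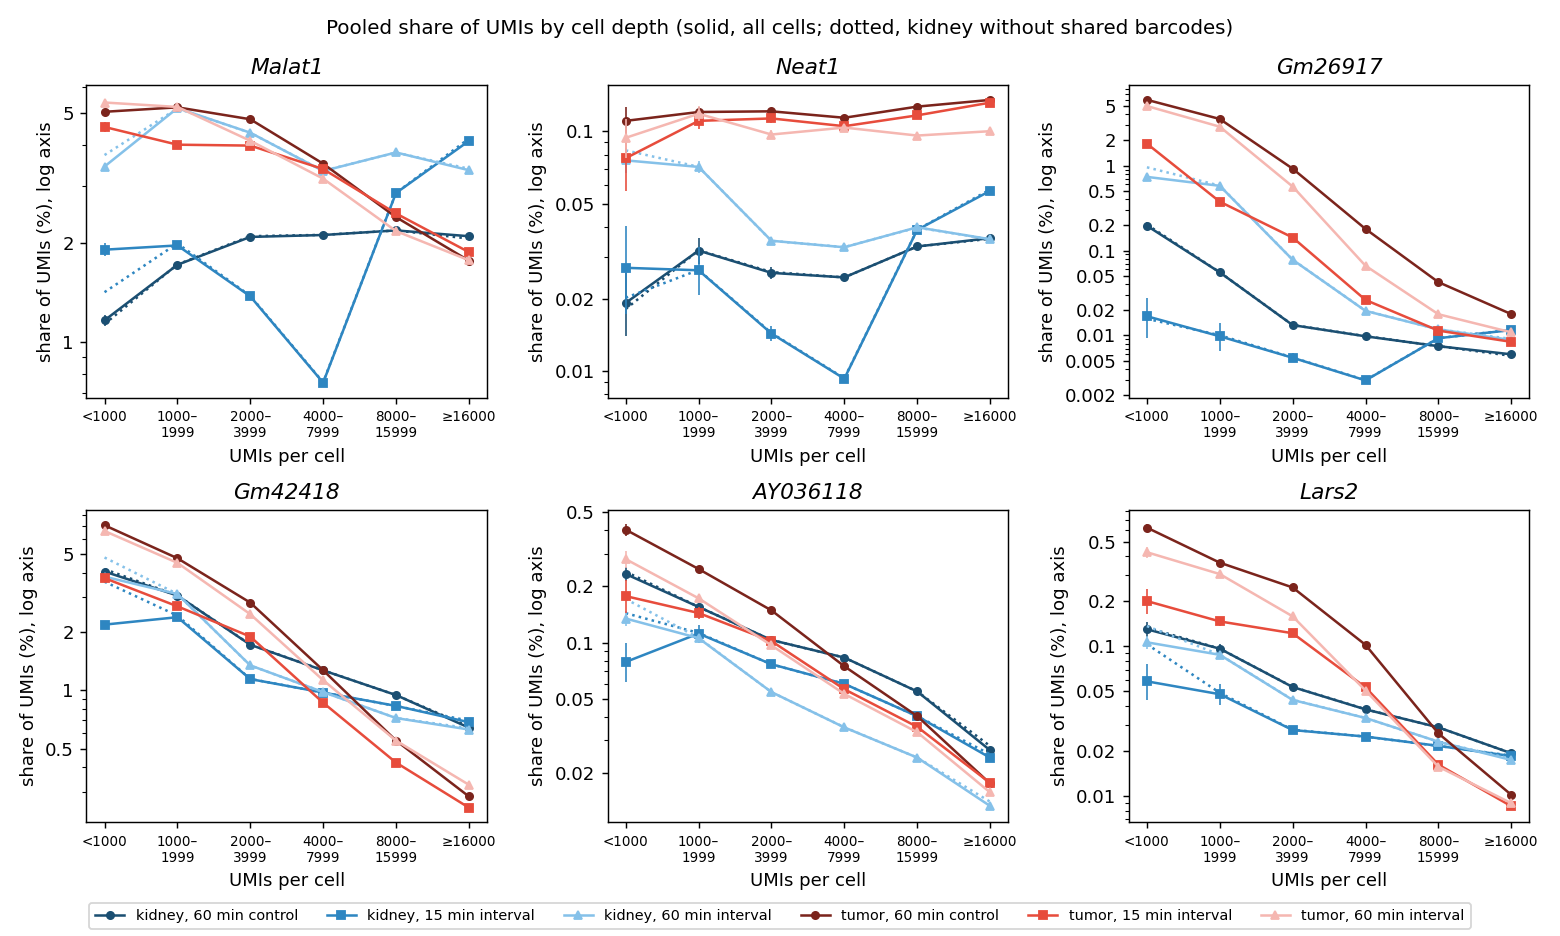
Share of UMIs (%, log axis) of each member against UMIs per cell, in 6 depth bins, for the 6 libraries, with exact binomial 95% intervals as bars (hidden by most points) and dotted lines for kidney without shared barcodes. Gm42418, AY036118 and Lars2 descended from left to right, except that Gm42418 and AY036118 in all cells of the 15 min kidney library rose between the lowest bins. Gm26917 descended most in the tumor, Neat1 in the tumor stayed between 0.0773 and 0.135%, and Malat1 in the 15 min kidney library dipped to 0.752% at 4000 to under 8000 UMIs.

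Gm42418, the model over the small-subunit ribosomal RNA, took 3.29, 2.33 and 3.26% of UMIs in shallow kidney cells against 1.07, 0.873 and 0.83% in deep ones. In the tumor it took 5.06, 2.80 and 4.83% in shallow cells against 0.737, 0.525 and 0.674% in deep ones. The shallow share was 3.09, 2.66 and 3.93 times the deep share in kidney and 6.87, 5.33 and 7.17 times in the tumor, so no ratio in kidney reached the lowest in the tumor. Without shared barcodes the kidney ratios were 3.11, 2.95 and 4.09. Across the whole range of depth, the share in the tumor control went from 7.05% under 1000 UMIs to 0.284% at 16000 or more. In the 15 min kidney library the share under 1000 UMIs was 2.17%, and 3.61% without shared barcodes.

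Per cell, Gm42418 UMIs hardly followed depth in the tumor control. This library held a mean of 55.2 Gm42418 UMIs in cells under 1000 UMIs, 73.4 at 1000 to under 2000, 81.7 at 2000 to under 4000, 74.6 at 4000 to under 8000, 63.6 at 8000 to under 16000 and 74.1 at 16000 or more. Over the same bins the mean depth went from 783 to 26112 UMIs. The 15 min and 60 min tumor libraries went from 28.2 to 62 and from 51.5 to 80.7 Gm42418 UMIs per cell. Kidney differed from this, with means of 28.6, 13.7 and 27.3 in the lowest bin and 147, 145 and 149 in the highest. The number of Gm42418 molecules per cell was thus nearly level in the tumor control, rose somewhat in the other tumor libraries and rose more in kidney, while the share fell.

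AY036118, the antisense model, took 0.173, 0.104 and 0.111% of shallow kidney UMIs and 0.0655, 0.0462 and 0.0288% of deep ones. In the tumor the shares were 0.269, 0.147 and 0.189% in shallow and 0.0492, 0.0401 and 0.0373% in deep cells. Its ratios of shallow to deep share were 2.64, 2.25 and 3.87 in kidney (2.66, 2.52 and 4.05 without shared barcodes) and 5.46, 3.67 and 5.08 in the tumor. It followed Gm42418 at a far lower level, with 5.56, 4.85 and 3.14 AY036118 UMIs per 100 Gm42418 UMIs in all kidney cells and 6.15, 7.14 and 5.03 in the tumor.

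Lars2 took 0.104, 0.0503 and 0.0915% of shallow kidney UMIs and 0.0323, 0.0227 and 0.0275% of deep ones. In the tumor it took 0.395, 0.152 and 0.322% of shallow and 0.0461, 0.0248 and 0.0233% of deep UMIs. The ratio was 3.22, 2.22 and 3.33 in kidney (3.23, 2.48 and 3.49 without shared barcodes) and 8.56, 6.12 and 13.8 in the tumor. For 16 other mitochondrial aminoacyl-tRNA synthetases, the family to which Lars2 belongs by function (15 tested in the tumor control and 60 min libraries), the median ratio was 0.875, 1.11 and 1.25 in kidney and 1.51, 0.739 and 0.924 in the tumor. The median over all genes tested was 1.05, 1.31 and 1.17 in kidney and 0.935, 0.90 and 0.942 in the tumor. Lars, the cytosolic enzyme for the same amino acid, had ratios between 0.764 and 1.32. Lars2 lay above the family median and above Lars in all 6 libraries. It was chosen on this contrast and they were not, so nothing is read from its place above them.

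Gm26917 had the widest range of the members. It took 0.0872, 0.0114 and 0.61% of shallow kidney UMIs and 0.00837, 0.00735 and 0.0151% of deep ones. In the tumor it took 3.85, 0.51 and 3.21% of shallow and 0.0783, 0.0148 and 0.0283% of deep UMIs. The ratio was 10.4, 1.55 and 40.3 in kidney and 49.2, 34.4 and 113 in the tumor. The 15 min library was the lowest of its tissue on this measure, in shallow share as in ratio. In the tumor, Gm26917 also fell in absolute number, with means of 52.7, 7.19 and 42.5 UMIs per shallow cell and 7.24, 1.42 and 2.73 per deep cell. In kidney the means were 1.04, 0.133 and 7.51 per shallow cell and 0.687, 0.654 and 1.19 per deep cell, so the 15 min library went the other way. Without shared barcodes the kidney ratios were 10.5, 1.47 and 42.4.

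Malat1 took 1.59, 1.96 and 4.82% of shallow kidney UMIs against 2.16, 2.20 and 3.58% of deep ones, which gave ratios of 0.737, 0.888 and 1.34 (0.737, 0.870 and 1.37 without shared barcodes). In the tumor it took 5.17, 4.05 and 5.23% of shallow against 2.69, 2.67 and 2.39% of deep UMIs, with ratios of 1.92, 1.51 and 2.19. Malat1 was thus higher in shallow than in deep cells of the 3 tumor libraries and lower in those of the kidney control. The 15 min kidney value changed direction with the setting, being 3.18 within the study's upper limits, 1.07 with the members left out of the depth, 1.10 by the mean share per cell and 0.292 for the shallowest against the deepest 25% of cells. In the 15 min kidney library its share did not run 1 way with depth, being 1.91% under 1000 UMIs, 0.752% at 4000 to under 8000 and 4.10% at 16000 or more.

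Neat1 took 0.029, 0.0265 and 0.072% of shallow kidney UMIs against 0.0298, 0.0298 and 0.0368% of deep ones. In the tumor the shares were 0.119, 0.108 and 0.115% in shallow and 0.124, 0.114 and 0.0978% in deep cells. The ratio lay between 0.89 and 1.17 in 5 libraries and was 1.96 in the 60 min kidney library. Without shared barcodes the kidney ratios were 0.968, 0.858 and 1.99. Over the 6 depth bins, Neat1 in the tumor stayed between 0.0773 and 0.135%.

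With a call defined as a shallow share at least 2 times the deep share, among genes with at least 50 UMIs in both kinds of cell together, 4, 3 and 4 of the 6 members were called in the kidney libraries and 4, 4 and 5 in the tumor. Over all genes tested, 6.29, 29.2 and 13.1% were called in kidney and 11.2, 9.65 and 11.6% in the tumor. The members were chosen on this contrast, so nothing is read from these counts. Gm42418, AY036118 and Lars2 were called in each library, Gm26917 in all but the 15 min kidney library, and Malat1 in the 60 min tumor library alone. In the 15 min kidney library, all 6 were called within the study's upper limits, and 1, AY036118, for the shallowest against the deepest 25% of cells. The share of all genes called under these settings is not given, so these counts are not read as a result about the members. Just inside the limit was Malat1 at 2.19 in the 60 min tumor library, and just outside it was Neat1 at 1.96 in the 60 min kidney library.

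Other properties of shallow cells moved beside these shares. Mitochondrially encoded genes took 14.6, 13.7 and 16.8% of shallow and 13.4, 20.8 and 17.1% of deep kidney UMIs. In the tumor they took 21.5, 20.5 and 22.3% of shallow and 9.97, 8.56 and 8.37% of deep UMIs, and 12, 13 and 13 of the 13 genes were called higher. Of the cytosolic ribosomal protein genes tested, 51 of 76, 16 of 76 and 21 of 77 had a deep share at least 2 times the shallow one in the tumor, and 0 of 77 did in kidney. The share of all genes past this fold in that direction is not given. The median ratio of these genes was 0.813, 1.25 and 0.663 in kidney, where that of all genes tested was 1.05, 1.31 and 1.17. In the tumor it was 0.458, 0.561 and 0.559, where that of all genes was 0.935, 0.90 and 0.942. The part of mitochondrial and ribosomal protein genes in the members' shares was not tested. With mitochondrial UMIs left out of the total, the ratios of the rRNA-like group were 3.16, 2.41 and 4.51 in kidney and 12.1, 6.86 and 13.2 in the tumor.

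Cell types were gated with marker lists, and 27.7% of kidney and 36.1% of tumor cells met no gate. In the 29 combinations of type and library with at least 20 shallow and 20 deep cells, Gm42418, AY036118 and Lars2 each had a larger shallow than deep share in 29. For Gm42418 the ratios ran from 1.53 to 10.1 with a median of 2.62. Gm26917 was higher in shallow cells in 23 of 29, Malat1 in 20 and Neat1 in 14. Gm42418, AY036118 and Lars2 thus shared a direction under this gate, but not a size of difference. Their shallow share was at least 2 times the deep one in 24, 20 and 16 of the 29 combinations. Ratios ran from 1.11 to 6.5 for AY036118 and from 1.14 to 18.1 for Lars2. With cells gated by the number of markers found, Lars2 in T lymphocytes of kidney no longer had a larger shallow share. The members were chosen on this contrast and no share of all genes is given by type, so nothing is read from these counts.

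**Figure D2:**
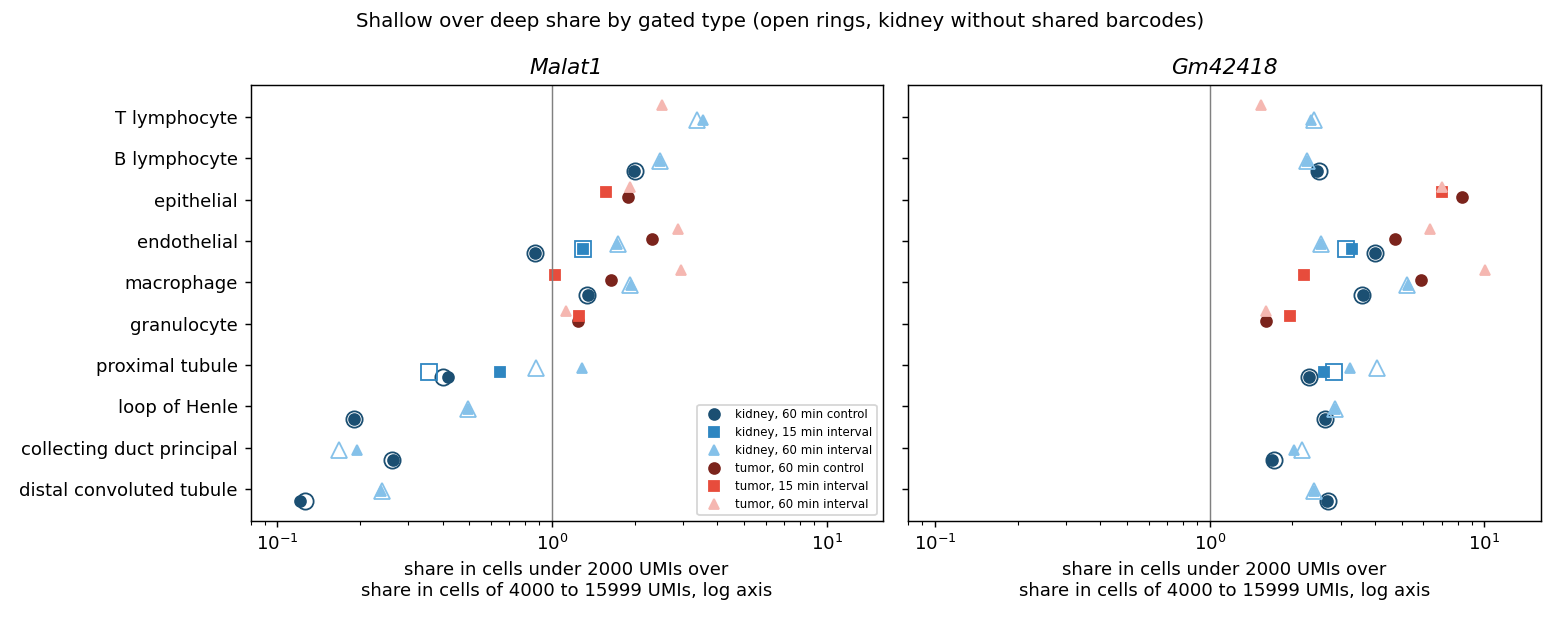
Ratio of the share in cells under 2000 UMIs to the share in cells of 4000 to under 16000 UMIs (log axis) for Malat1 (left) and Gm42418 (right), by gated type and library, with open symbols for kidney without shared barcodes. Gm42418 points all lie right of the line at 1, whereas Malat1 points of the loop of Henle, collecting duct and distal convoluted tubule lie left of it and those of lymphocytes lie right of it.

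Malat1 split by type. In kidney, the distal convoluted tubule had a Malat1 ratio of 0.122 in the control and 0.239 in the 60 min library, collecting duct principal cells 0.264 and 0.195, and the loop of Henle 0.191 and 0.494. In the same libraries B lymphocytes had ratios of 1.98 and 2.47 and macrophages 1.35 and 1.94. These 3 tubule types thus held less Malat1 in their shallow cells, and the immune cells beside them held more. The proximal tubule, the segment that reabsorbs most of the filtrate, had ratios of 0.42, 0.65 and 1.29, and of 0.40, 0.357 and 0.876 without shared barcodes. In the tumor all 12 combinations were above 1, between 1.02 in macrophages of the 15 min library and 2.95 in macrophages of the 60 min library. Shallow and deep cells of a gate may differ in kind as well as in depth, and the part of this was not tested.

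For Gm42418 both the highest ratio of a type, 10.1, and the lowest, 1.53, were in the tumor. Neither was in epithelial cells or granulocytes. Epithelial cells are those in which the promoter drives the oncogene. Their Gm42418 share was 6.5, 3.98 and 5.59% in shallow and 0.782, 0.567 and 0.80% in deep cells. In granulocytes, short-lived cells with little RNA, it was 1.82, 1.1 and 1.10% in shallow and 1.13, 0.55 and 0.689% in deep cells. The epithelial ratios of 8.31, 7.02 and 6.99 lay above the granulocyte ratios of 1.61, 1.97 and 1.60 in each library. With 1 library per condition this difference was not tested.

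Most deep proximal tubule cells held very little Malat1. A cell was called Malat1-poor when Malat1 made up under 0.2% of its UMIs, a limit chosen after the values were seen. Among deep cells gated as proximal tubule, 95.7% (94.5 to 96.7, n = 1481 cells), 95.3% (94.7 to 95.9, n = 4735) and 92.3% (90.7 to 93.7, n = 1236) were Malat1-poor. Intercalated cells followed with 85.7, 85.7 and 64.7%, then the loop of Henle with 69.8, 61.5 and 54.5% and the distal convoluted tubule with 34.8, 42.9 and 49.5%. Collecting duct principal cells had 9.41% in the control and 16.1% in the 60 min library. In kidney endothelial cells the share was 0.316, 0.498 and 0.0826%, and in kidney macrophages 0.238, 3.70 and 0.586%.

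**Figure D3:**
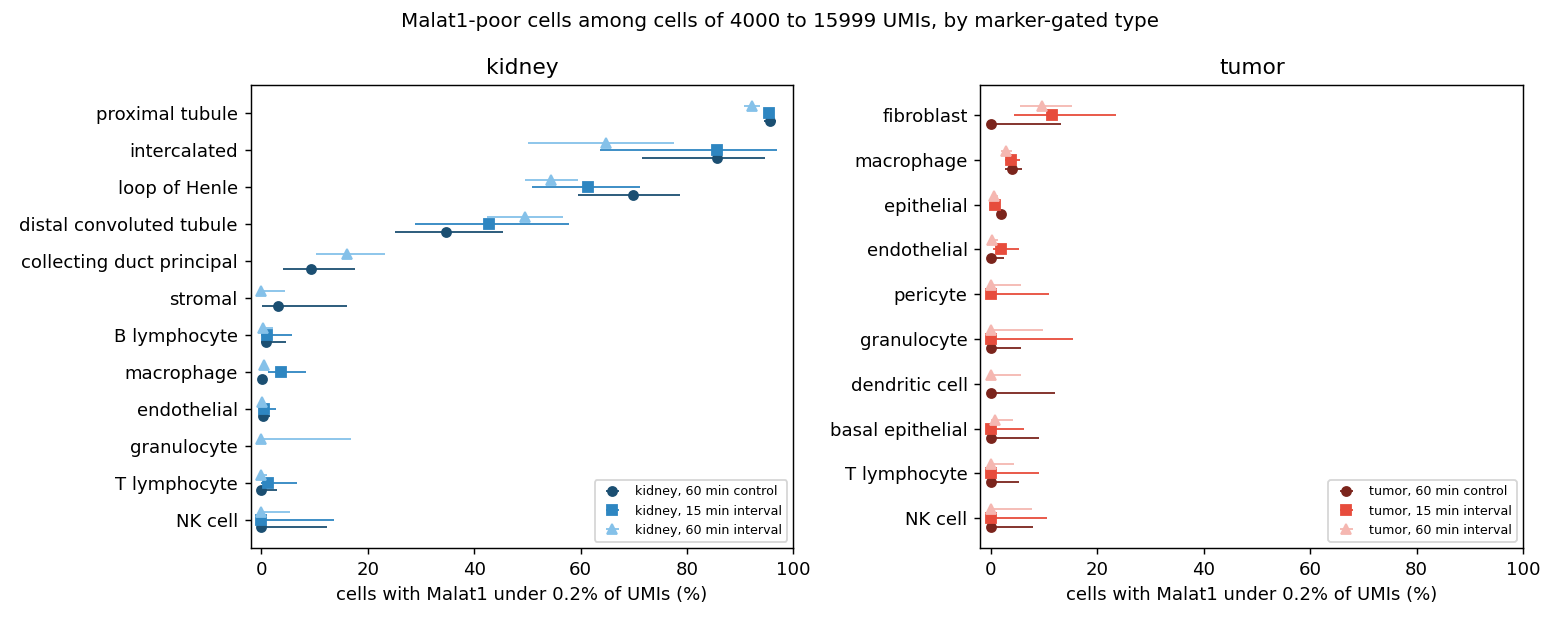
Percent of cells of 4000 to under 16000 UMIs with Malat1 under 0.2% of their UMIs, by gated type, for kidney (left) and tumor (right), with exact binomial 95% intervals. Kidney tubule types span 9.41 to 95.7%, while kidney endothelial cells and macrophages and tumor epithelial cells and macrophages stay at or under 4.01%.

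The tubule types had the proximal tubule at the top in each library. The intervals of intercalated cells overlapped those of the loop of Henle in all 3 libraries. They overlapped those of the proximal tubule in the control and 15 min libraries. Those of the loop of Henle and the distal convoluted tubule overlapped in the 15 and 60 min libraries. The intervals cover the counting of cells within 1 library only, so the order of the types, overlapping or not, has no replicate check. Deep tumor epithelial cells were Malat1-poor in 1.92, 0.758 and 0.628% and tumor macrophages in 4.01, 3.82 and 2.76%. Fibroblasts of the 15 and 60 min tumor libraries had 11.5 and 9.55%. Tumor epithelium thus held no Malat1-poor class of a size near that in the proximal tubule.

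Which members left with Malat1 was then compared inside the proximal tubule. The Malat1 share itself, by which cells were parted, was 0.0132, 0.0156 and 0.0248% in Malat1-poor cells and 8.07, 10.7 and 10.9% in the rest (n = 64, 221 and 95 cells). The share in Malat1-poor cells lay below that of barcodes with fewer than 200 genes of the same libraries, which was 0.0289, 0.0334 and 0.0372% of all UMIs and 0.795, 1.13 and 1.21% of UMIs outside mitochondrial genes. The level of free RNA was not measured. Neat1 was 0.000573, 0.000994 and 0.000962% in Malat1-poor cells and 0.131, 0.154 and 0.109% in the rest. Gm26917 was 0.000282, 9.29e-05 and 0.000375% in Malat1-poor cells and 0.041, 0.0486 and 0.0526% in the rest. Both thus went with Malat1, with the rest holding 228, 155 and 113 times as much Neat1 and 145, 523 and 140 times as much Gm26917. In Malat1-poor cells these folds rest on 71, 396 and 100 Neat1 UMIs and 35, 37 and 39 Gm26917 UMIs.

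Gm42418 did not part with Malat1. Its share was 1.01, 0.84 and 0.757% in Malat1-poor proximal tubule cells and 0.886, 0.887 and 0.747% in the rest. The rest held 0.877, 1.06 and 0.987 times the Gm42418 share of Malat1-poor cells, 0.637, 0.791 and 0.922 times the AY036118 share and 1.77, 1.26 and 1.42 times the Lars2 share. Of the 4 rRNA-like members, Gm26917 alone differed by over 100 times here, as the nuclear pair did. Malat1-poor cells also held more ribosomal protein UMIs, 9.11, 6.52 and 8.57% against 4.99, 4.61 and 4.67%, and fewer genes, with medians of 2103, 2000 and 2183 against 2700.5, 3250 and 2519. They were shallower as well, with medians of 8211, 8310 and 8819 UMIs against 10887.5, 12083 and 10133. Mitochondrial UMIs took 14.3, 22.3 and 17.3% of Malat1-poor cells and 19.96, 16.2 and 17.8% of the rest. The part of these in the split was not tested.

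**Figure D4:**
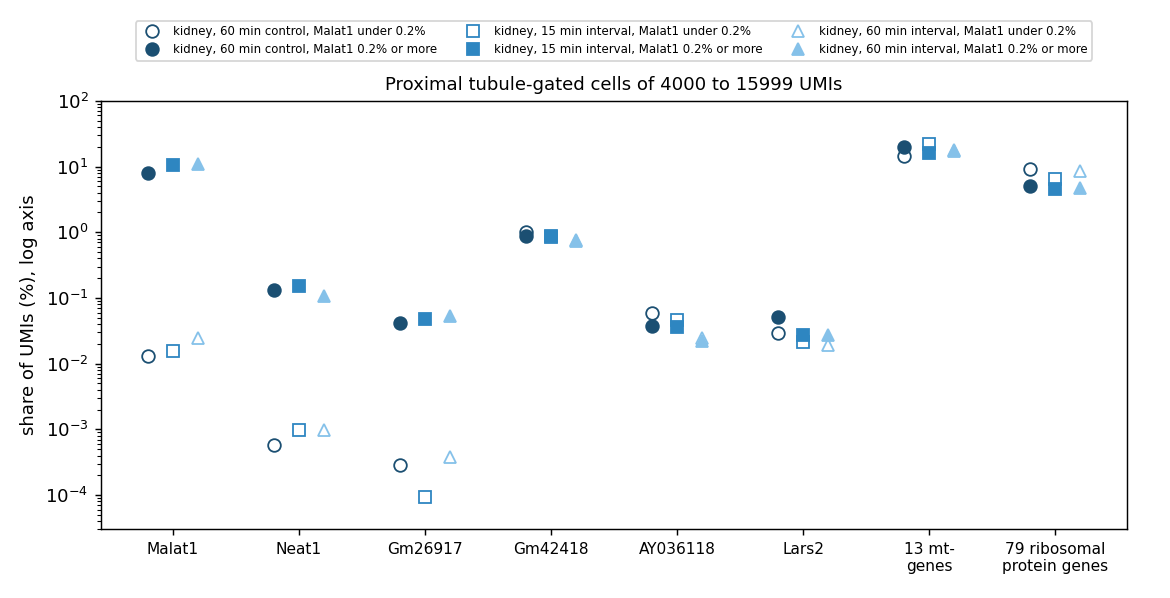
Share of UMIs (%, log axis) of the 6 members, of 13 mitochondrially encoded genes and of 79 ribosomal protein genes in proximal tubule cells of 4000 to under 16000 UMIs, with open symbols for Malat1 under 0.2% and filled symbols for the rest, in the 3 kidney libraries. Malat1, Neat1 and Gm26917 are more than 100 times apart, and Gm42418 lies between 0.747 and 1.01% in both.

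In the loop of Henle, Neat1 and Gm26917 again went with Malat1, and Lars2 did in part. Its remaining cells held 121, 180 and 78.9 times the Malat1 share and 61.6, 119 and 28.5 times the Neat1 share of Malat1-poor cells. They held 14.9, 165 and 61.9 times the Gm26917 share. The Malat1-poor cells held 7, 1 and 12 Gm26917 UMIs and 7, 6 and 60 Neat1 UMIs, so the folds of these genes are rough. The remaining cells held 1.01, 0.97 and 1.35 times the Gm42418 share and 1.5, 2.10 and 2.92 times the Lars2 share. Malat1-poor cells of this segment were high in mitochondrial UMIs, at 49.4, 49.2 and 52.8%, against 38.1, 32.5 and 38.8% in the rest.

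Gm26917 was concentrated in few cells. The 1% of cells with the most Gm26917 UMIs held 34.8, 25.4 and 55.6% of all its UMIs in kidney and 24.5, 27.0 and 37.5% in the tumor. The same number of the deepest cells held between 3.74 and 6.05% of all UMIs. Cells in which Gm26917 reached 1% of UMIs, a limit also chosen after the values were seen, made up 1.62, 0.301 and 10.1% of shallow kidney cells (14 of 863, 1 of 332 and 149 of 1481). In the shallow tumor cells they made up 48.3, 11.3 and 39.1% (495 of 1024, 49 of 432 and 231 of 591). In both tissues the 15 min library had the fewest.

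**Figure D5:**
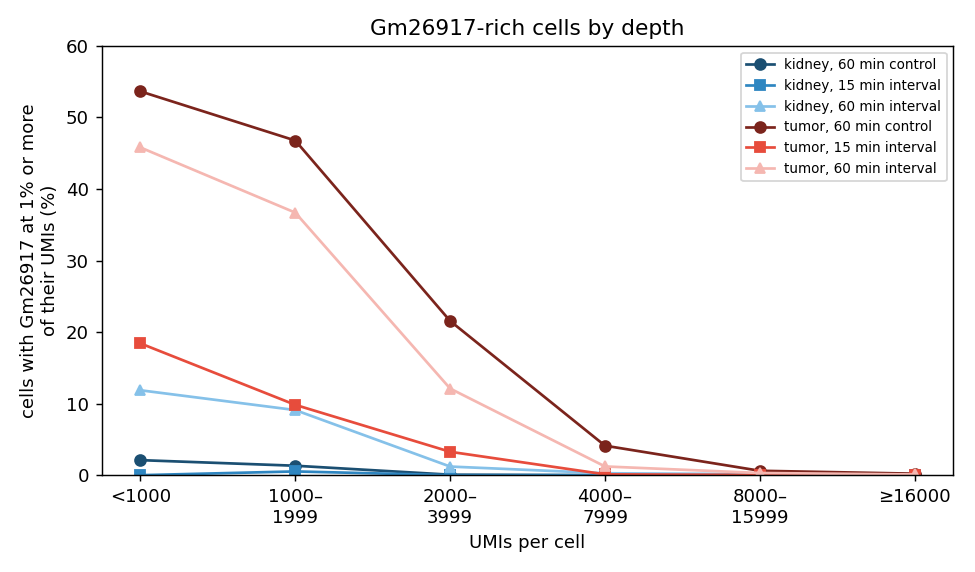
Percent of cells with Gm26917 at 1% or more of their UMIs against UMIs per cell in the 6 libraries. The tumor control falls from 53.6% under 1000 UMIs to 0.21% at 16000 or more, the 60 min tumor library starts at 45.8%, and the 15 min tumor and all kidney libraries start at or under 18.4%.

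By type, shallow tumor epithelial cells were Gm26917-rich in 65.2, 19.7 and 55.2%, and shallow granulocytes of the tumor control in 8.52%. In the 60 min kidney library, shallow macrophages were Gm26917-rich in 18.3% (12.1 to 26.0, 24 of 131). The median share of Gm42418 was 6.67% in shallow Gm26917-rich cells of the tumor control and 1.81% in its other shallow cells. Median mitochondrial shares in the rich and the other shallow tumor cells were 17.1 and 11%, 25.8 and 9.06%, and 25.8 and 9.84%. In shallow kidney cells these medians were 9.38 and 9.93% in the control and 9.18 and 12.7% in the 60 min library. Mitochondrial shares were thus higher in Gm26917-rich cells of the tumor and not of these 2 kidney libraries. The kidney control held only 14 rich shallow cells. Rich and other shallow cells also differed in gated type. In the tumor control, mitochondrial genes took 26.4% of UMIs in shallow epithelial cells and 4.88% in shallow granulocytes. The part of cell type in these medians was not tested. The highest Gm26917 share of a rich cell was 44.0% of its UMIs, in the tumor control.

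The ratio of the neighbouring models Gm26917 and Gm42418 changed with depth. Shallow kidney cells held 2.65, 0.491 and 18.7 Gm26917 UMIs per 100 Gm42418 UMIs, and deep ones 0.785, 0.842 and 1.82. Shallow tumor cells held 76.1, 18.2 and 66.3, and deep ones 10.6, 2.83 and 4.19. In the 15 min kidney library the shallow value was the lower one, and in the other 5 it was the higher. The UMIs of these neighbours were thus not in a fixed proportion.

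Among cells of 4000 to under 8000 UMIs of 1 library, members were compared cell by cell. These are correlations across cells that share a library and a range of depth, given as a description (n = 1558 to 4451 cells). Malat1 and Neat1 shares had Spearman's rho between 0.293 and 0.672 and Pearson's r between 0.31 and 0.64. Malat1 and Gm26917 had rho of 0.366 to 0.508 in kidney and 0.273 to 0.299 in the tumor. Malat1 and Gm42418 had rho between -0.069 and 0.032 in kidney and between 0.122 and 0.246 in the tumor. Gm42418 and Lars2 had rho of 0.354 to 0.674, and Gm42418 and AY036118 of 0.266 to 0.494. In shallow tumor cells, Gm26917 and Gm42418 had rho of 0.657 to 0.75, and in shallow kidney cells 0.15 to 0.352.

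Conditions were set side by side at matched depth. At 1000 to under 2000 UMIs, Gm26917 took 0.0554, 0.00979 and 0.578% of kidney and 3.54, 0.376 and 2.87% of tumor UMIs. At the same depth Gm42418 took 3.07, 2.37 and 3.12% in kidney and 4.77, 2.70 and 4.51% in the tumor. The 15 min library had the lowest value of its tissue for both genes, although for Gm42418 the distance was small beside that for Gm26917. Malat1 at this depth took 1.72, 1.97 and 5.17% in kidney and 5.19, 4.0 and 5.21% in the tumor. The mix of gated types differed between these libraries, and its part in these differences was not tested.

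Genes related to the members by function were counted from lists. Of 7 paraspeckle proteins, which bind Neat1, 0, 2 and 1 were called higher in shallow kidney cells and 0 in each tumor library, with medians of 0.962, 1.65 and 1.49 in kidney and 1.24, 1.05 and 1.09 in the tumor. Pspc1 had the highest median log2 ratio of this list, 0.91, and Hnrnpk the lowest, -0.44. Of 9 nuclear speckle and splicing proteins, 0, 2 and 1 were called higher in kidney and 1, 1 and 3 in the tumor, with medians of 1.14 to 1.57. Son, a scaffold protein of speckles, had the highest log2 ratio, 1.20, and Srsf3, a splicing factor, the lowest, -0.48. The medians of the speckle list lay above those of all genes tested in each library.

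Other noncoding RNAs of the nucleus were sparse. Of 10 such RNAs listed, 4 to 6 had enough UMIs to be tested, and 0 to 2 were called higher in a library. Ftx had the highest median log2 ratio, 1.10, and Kcnq1ot1 the lowest, -0.13. Of 5 genes that are counted beside rRNA-like models in other droplet data, 0, 1 and 2 were called higher in kidney and 0, 0 and 1 in the tumor, with Filip1l highest at a log2 ratio of 0.40 and Camk1d lowest at -0.61. Haemoglobin genes, which mark carried-over red cells, were lower in shallow cells wherever they were tested, and took at most 0.0297% of deep and 0.00114% of shallow UMIs.

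The genes whose level was most like the members' over 36 points (6 libraries by 6 depth bins) were sought among 3256 genes. For the nuclear pair they were AC149090.1, Prpf4b, Nsd3, Leng8 and Prpf38b, with Pearson's r of log2 level between 0.82 and 0.834. For the rRNA-like group they were Hexim1, Hist1h1e, Trip12, Trim44 and Ate1, with r between 0.826 and 0.891. Malat1 had r of 0.491 and Neat1 0.0791 with the rRNA-like group. The points of 1 library share its cells' preparation, so these values describe likeness of pattern only.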

How the data were processed

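The authors aligned droplet reads of 6 libraries with Cell Ranger 3.1.0 to mm10, per the submitters' processing notes, and joined the libraries of a tissue with an aggregation that evens read depth. The deposited counts are whole UMIs for every gene in every cell, taken before any limit on cells. The study's filters (upper limits of 3000 genes and 50% mitochondrial UMIs in kidney, 4000 and 25% in the tumor) were used here as an alternative only. UMIs discarded by the aggregation cannot be recovered.

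Cells with at least 200 genes were kept. A share is the summed UMIs of a gene over all UMIs of a set of cells, with exact binomial 95% intervals that cover counting error only. Shallow cells had under 2000 UMIs and deep cells 4000 to under 16000. A fold of 2 was a call, among genes with at least 50 UMIs. A cell was gated as a type when at least 2 markers of its list were found and the list led the next by at least 2 times in enrichment. Types needed 20 cells. No doublet caller was run, so doublets remain, mostly in deeper cells. Likeness used log2 of CPM plus 1, among genes of at least 20 CPM. Barcodes were compared by their 16 bases. Scripts ran in Python 3.11.15 with numpy 2.4.6, scipy 1.17.1, pandas 2.3.3 and matplotlib 3.10.9, and were tested on simulated data.

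Annotation and sequences came from GENCODE M21 (GRCm38). All 6 members are named. From each list, the 2 highest and 2 lowest genes by median log2 ratio could be named, and the 5 most alike genes per group. Listed symbols Rian, Firre and Mir22hg were not matched. The members and lists were chosen with earlier results of these data known. With 1 library per condition no test between conditions was run.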

Additional observations from a re-analysis of the deposited data

Results flagged for a closer look

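Barcodes with fewer than 200 genes, which the comparisons left out, held UMIs of both groups of genes above the limit that a count of 0 allows. They numbered 345, 561 and 240 in kidney and 264, 173 and 178 in the tumor (control, 15 min, 60 min) and had mitochondrial shares between 83.1 and 97.0%. Malat1 plus Neat1 took 0.0302, 0.0345 and 0.0386% of their UMIs in kidney and 0.222, 0.191 and 0.262% in the tumor. The rRNA-like group took 0.566, 0.327 and 0.269% in kidney and 3.18, 1.49 and 1.84% in the tumor. Of their UMIs outside mitochondrial genes, the rRNA-like group took 15.6, 11 and 8.76% in kidney and 18.8, 15.6 and 18.5% in the tumor, and the nuclear pair 0.832 to 2.64%.

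Cell types whose shallow to deep ratio lay above 1 in every library stood beside types whose ratio lay below 1 in every library. The difference was not tested, and with 2 or 3 libraries a type such a split can arise by chance. For Malat1 in kidney the median ratio was 2.23 in B lymphocytes and 1.65 in macrophages, and 0.229 in collecting duct principal cells, 0.18 in the distal convoluted tubule and 0.343 in the loop of Henle. For Neat1 in kidney it was 3.17 in B lymphocytes, 2.07 in endothelial cells and 2.24 in macrophages, and 0.377, 0.201 and 0.455 in the same 3 tubule types. For Neat1 in the tumor it was 1.41 in granulocytes and 0.866 in epithelial cells. For Gm26917 in kidney it was 6.22 in the distal convoluted tubule, 1.89 in endothelial cells, 3.62 in the loop of Henle, 69.8 in macrophages (20.4 in the control and 12.6 in the 60 min library with cells gated by the number of markers) and 2.24 in the proximal tubule, and 0.238 in collecting duct principal cells, where shallow cells held 1 and 3 Gm26917 UMIs in the control and 60 min libraries.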

How the results depend on the processing

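No paired analysis was possible because each condition has 1 library. The values below are shallow to deep ratios that moved beyond their counting interval, in the order control, 15 min, 60 min, and no alternative turned the direction of a called result. The cause of a move was not tested. Without the members in the depth, the nuclear pair gave 0.792, 1.07 and 1.44 in kidney and 2.0, 1.66 and 2.26 in the tumor, and the rRNA-like group 3.29 (control) and 4.58 (60 min) in kidney and 11, 6.54 and 11.5 in the tumor. Within the study's upper limits, the nuclear pair gave 0.969, 3.18 and 1.62 and 2.16, 1.53 and 2.18, and the rRNA-like group 3.03 and 4.65 (kidney control and 60 min) and 10.7, 4.54 and 9.46. For the shallowest against the deepest 25% of cells, the nuclear pair gave 0.88, 0.291 and 1.31 and 2.68, 1.95 and 2.22, and the rRNA-like group 3.19, 1.60 and 3.35 and 18.7, 6.48 and 9.22. In the 15 min kidney library, the nuclear pair thus lay above or below 1 by the setting. There 6 members were called within the study's limits and 1 between those outer sets, with no share of all genes given for these settings. Without mitochondrial UMIs, the nuclear pair gave 0.815 (kidney 15 min) and 2.16, 1.71 and 2.54 (tumor), and the rRNA-like group 3.16 and 2.41 (kidney control and 15 min) and 12.1, 6.86 and 13.2 (tumor). By the mean share per cell, the nuclear pair gave 0.703, 1.10 and 1.31 and 1.74, 1.41 and 2.02, and the rRNA-like group 3.04, 2.36 and 4.37 and 9.36, 5.54 and 10.5. With gated types weighted equally, the nuclear pair gave 0.633, 1.22 and 1.33 in kidney and 1.73 and 1.30 in the tumor control and 15 min, and the rRNA-like group 2.66, 2.86 and 2.74 and 6.11, 4.31 and 6.56. Without shared barcodes, added after seeing the data, the rRNA-like group gave 2.91 and 4.71 and the nuclear pair 1.38 in the kidney 15 and 60 min libraries, the last for 60 min alone. With cells gated by the number of markers found, 20 ratios of single types moved and 118 did not, and among these Lars2 in T lymphocytes of the 60 min kidney library went to 0.991 and Gm26917 in kidney macrophages to 20.4 (control) and 12.6 (60 min). With a fold of 1.5, the genes called were 2094 and 4195 (kidney control and 60 min) and 2813, 2522 and 3095 (tumor), and with no filter beyond 1 UMI they were 1898 and 3209 and 2839, 2190 and 2629. Depth limits Gm26917 and Lars2 in single shallow kidney cells, where most cells held few UMIs of either.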
